A study of Mus musculus with 21 samples.

Results

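Collagen genes encode the alpha chains that fold in threes into the triple helices of the extracellular matrix, and 42 of them were followed here through dexamethasone and tumour necrosis factor treatment of cultured mouse adipocytes. The members are every gene whose platform symbol reads Col, a number, the letter a and a number and that has a probe set listing 1 symbol, each taken from its probe set with the highest mean. The rule found 42 genes of the 18194 that have such a probe set, covered by 82 probe sets. By the assembly that each chain is known to enter, 11 were fibrillar, 8 belonged to basement membranes (type IV and the multiplexins) and 23 to other families.

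The data are 21 Affymetrix arrays in 7 groups of 3. The cells were 3T3-L1, an established mouse preadipocyte line that turns into fat cells in culture, and every group, controls included, had been through 14 days of differentiation. The control received no treatment and was taken at 0 h. The other groups received either 20 nM dexamethasone (Dex), a glucocorticoid drug, or the cytokine tumour necrosis factor alpha (TNF), which drives inflammation, started 2 h, 24 h or 6 d before harvest. The series set out to follow both agents during the development of insulin resistance. The labels call the replicates biological, and they give neither the TNF dose nor a vehicle, nor whether the 6 d of treatment fell within the 14 days. They do not say that the control was kept in culture as long as the 6 d groups, and where it was not, treatment and time in culture cannot be told apart.

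Fibrillar collagens (types I, III and V above all) build the banded fibres of interstitial matrix, type IV builds the sheet-like network of basement membranes, and the multiplexins types XV and XVIII sit at the edge of that sheet. Type VI forms beaded filaments between those structures and is a prominent matrix protein of fat tissue, while FACIT chains such as types XII and XVI decorate fibre surfaces. Preadipocytes secrete a fibrillar matrix that is remodelled as they fill with fat, and mature adipocytes are wrapped in a basement membrane. Glucocorticoids are long known to lower fibrillar collagen synthesis in connective tissue cells.

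One array stood apart. On TNF 6 d replicate 2 the standard deviation of all deposited values was 2.04, against 2.44 to 2.51 on the other 20 arrays, and the gap between 3' and 5' control probe sets was 2.00 log2 units. That gap was 0.777 on Dex 6 d replicate 2, 0.736 on TNF 2 h replicate 2 and 0.683 on TNF 24 h replicate 3, against 0.0210 to 0.283 on the remaining arrays. Its lowest correlation with another array of its group was 0.842, against at least 0.978 in the other groups. It gave the highest or lowest value of all 21 arrays for 21 of the 42 collagens, whereas each other array did so for 0 to 12. Among the genes tested it did so for 12 of the 27 collagens and for 70.5% of all 12156. Counts of calls are therefore given with all 21 arrays and again without this array. Leaving it out changes no difference between 2 other groups, only the errors and adjusted p-values, since all groups share 1 estimate of the spread.

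Testing required a value above 5.34, the median of all deposited log2 values, on 3 or more arrays, and 27 collagens passed. A change is a difference of mean log2 values with its standard error from limma, and it was called, and is said to rise or fall, when limma's p adjusted by Benjamini-Hochberg over all 12156 genes was below 0.05. Of the 27, 19 lay above that median on all 21 arrays. Tested chains were the fibrillar Col1a1, Col1a2, Col3a1, Col5a1, Col5a2, Col5a3, Col11a1, Col11a2 and Col27a1, the basement membrane chains Col4a1, Col4a2, Col4a5, Col4a6, Col15a1 and Col18a1, and 12 others. The others were the type VI chains Col6a1, Col6a2 and Col6a3, the network chain Col8a1, the FACIT chains Col9a1, Col9a3, Col12a1, Col16a1, Col20a1 and Col22a1, the anchoring fibril chain Col7a1 and the transmembrane chain Col25a1. The 15 dim chains included the cartilage collagens Col2a1, Col9a2 and Col10a1 and the kidney and lung basement membrane chains Col4a3 and Col4a4. The rest were Col6a4, Col6a5, Col8a2, Col13a1, Col14a1, Col17a1, Col19a1, Col23a1, Col24a1 and Col26a1. Their highest values without the outlying array ranged from 3.37 for Col24a1 to 5.41 for Col10a1, and none of them was called in any comparison when the filter was removed. Among the tested chains, Col4a6, Col9a3 and Col22a1 were above the median on only 4, 5 and 8 arrays, and no comparison called them.

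**Figure D1:**
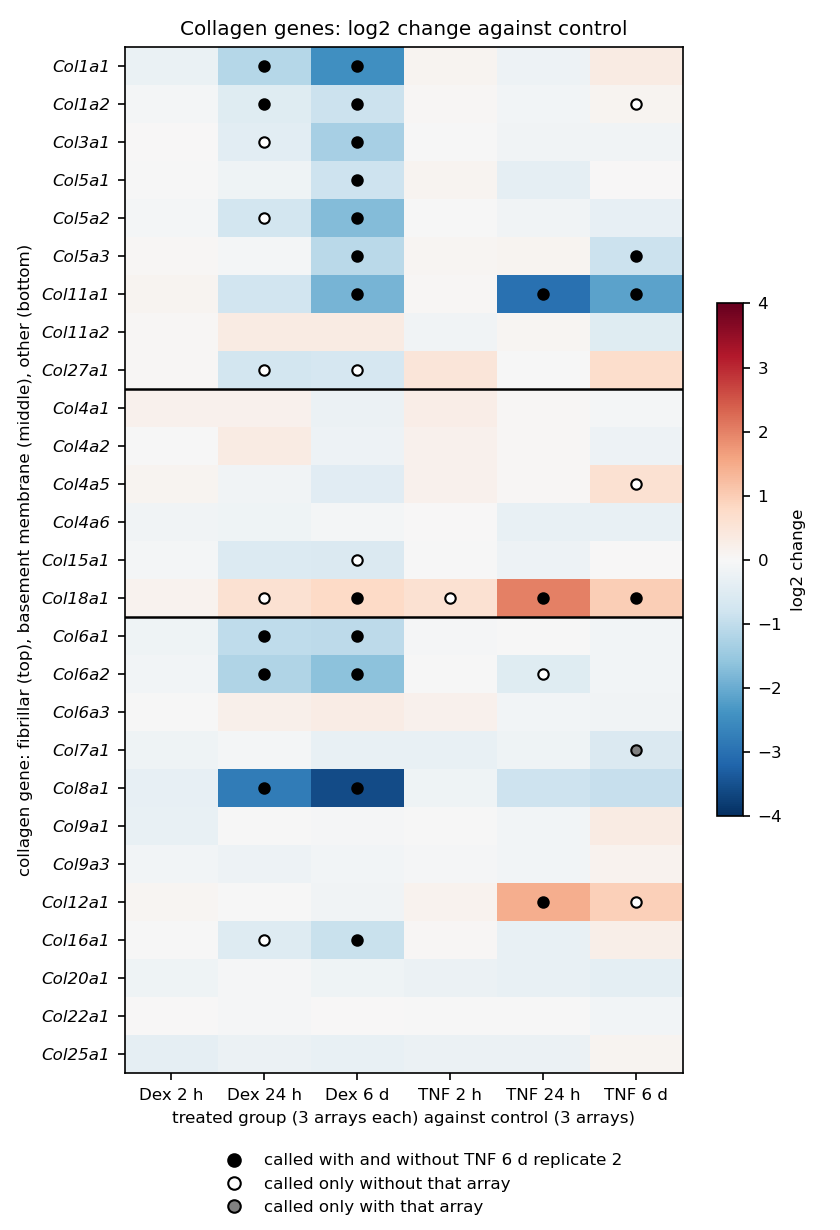
Log2 change of the 27 tested collagen genes (y axis, by class) in the 6 treated groups against control (x axis), with 3 arrays in each group and colour from -4 (blue) to 4 (red). Filled circles mark genes called with and without TNF 6 d replicate 2, open circles those called only without it and the grey circle the 1 called only with it. The falls gather in the fibrillar rows at Dex 6 d, where 7 of 9 were called, whereas Col18a1 is red in every column from 24 h on.

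After 6 d of Dex most fibrillar chains were lower than in the control. Col1a1, Col3a1 and Col5a2, the chains of types I, III and V fibres, fell 5.44-fold, 2.5-fold and 3.33-fold against control, and 7 of the 9 tested fibrillar chains fell in all. Of the 27 tested collagens, 11 fell and 1, Col18a1, rose, where 5.08% of all genes tested fell and 3.22% rose. The median change was -1.06 over the 9 fibrillar chains, -0.22 over the 6 basement membrane chains and -0.23 over the 12 others, beside -0.02 over all genes tested. Without TNF 6 d replicate 2 the counts were 13 lower and 1 higher, beside 13.5% and 10.4% of all genes, and all 12 of the calls made with it were kept. Without Dex 6 d replicate 2, the array with the wider gap between 3' and 5' control probe sets, 11 chains fell and 0 rose. The share of all genes called is not given for that fit. All 3 arrays lay below all 3 controls in 15 of the 27 chains, beside 20.7% of all genes, and above them in 1, beside 16.5%. On the same Dex 6 d arrays the mean of 10 preadipocyte and fibroblast markers was 9.12 to 9.32 against 9.79 to 9.99 in controls, and its part in the collagen falls was not tested. In bulk RNA, fewer cells of a type and less RNA per cell cannot be told apart.

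Type I collagen, the main fibre of interstitial matrix, is made of alpha 1 chains with an alpha 2 chain. Col1a1 read 10.13, 10.15 and 10.67 on the control arrays, 10.03, 9.96 and 10.21 after 2 h of Dex, 9.03, 9.01 and 9.53 after 24 h and 7.30, 8.22 and 8.09 after 6 d. The 24 h and 6 d arrays lay below every control array and did not overlap each other, with control replicate 3 the highest of all 12. The change was -1.13 ± 0.30 (adjusted p = 0.0374) at 24 h and -2.44 ± 0.30 (adjusted p = 1.77e-05) at 6 d. Its partner Col1a2 read 14.21, 14.20 and 14.32 in controls, 14.13, 14.07 and 14.28 at 2 h, 13.74, 13.70 and 13.85 at 24 h and 13.24, 13.45 and 13.50 at 6 d. These groups stepped down without overlap from 2 h to 24 h to 6 d, with changes of -0.48 ± 0.13 (adjusted p = 0.0404) and -0.85 ± 0.13 (adjusted p = 1.94e-04) at the later times. Both 24 h calls were near the threshold. That of Col1a1 was lost under cyclic loess (adjusted p = 0.0757), with no filter on dim genes (adjusted p = 0.0518), and without control replicate 1, 2 or 3 (-1.22, -1.21 and -0.95), Dex 24 h replicate 1 or 2 (-1.05 and -1.04), Dex 2 h replicate 1 or 2 or TNF 2 h replicate 3 (-1.13 each). That of Col1a2 was lost under median centring (adjusted p = 0.207), with no filter (adjusted p = 0.0669), with the mean of all probe sets (adjusted p = 0.054), and without any of 13 arrays (each control, each Dex 24 h array, Dex 2 h replicates 1 and 2, Dex 6 d replicate 2, TNF 2 h replicates 1 and 3, TNF 24 h replicates 1 and 2), with values of -0.44 to -0.52.

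Type III collagen, which mixes with type I in pliable tissue, is a trimer of Col3a1 chains alone. Col3a1 read 14.51, 14.50 and 14.55 in controls, 14.56, 14.49 and 14.51 at 2 h, 14.05, 14.03 and 14.17 at 24 h and 13.04, 13.18 and 13.38 at 6 d. Both later groups lay wholly below the controls. The fall at 6 d was -1.32 ± 0.13 (adjusted p = 2.18e-06), and the 24 h change of -0.44 ± 0.13 (adjusted p = 0.0922) was called without the outlying array (adjusted p = 5.44e-04). It was also called in a fit of these 6 arrays alone, without the replicate block (adjusted p = 4.93e-04) and with it (adjusted p = 5.48e-05).

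Type V chains sit inside type I fibres and set their diameter. Col5a2 read 13.26, 13.26 and 13.42 in controls, 13.22, 13.20 and 13.29 at 2 h, 12.53, 12.47 and 12.75 at 24 h and 11.37, 11.78 and 11.60 at 6 d, again without overlap from 24 h on. Its 6 d change was -1.73 ± 0.26 (adjusted p = 1.84e-04) and its 24 h change of -0.73 ± 0.26 (adjusted p = 0.177) was called without the outlying array (adjusted p = 2.96e-05) and in the fit of these 6 arrays with the replicate block (adjusted p = 1.66e-05). Col5a1 read 10.83, 10.83 and 10.99 in controls, 10.85, 10.86 and 10.88 at 2 h, 10.63, 10.60 and 10.94 at 24 h and 9.77, 10.30 and 10.08 at 6 d. It was lower on every 6 d array, with a change of -0.83 ± 0.20 (adjusted p = 0.0124) and a call that was lost under cyclic loess (-0.83, adjusted p = 0.0933) and without control replicate 3 (-0.77) or Dex 6 d replicate 1 (-0.69). Col5a3, the third type V chain, read 8.38, 8.50 and 8.70 in controls, 8.60, 8.62 and 8.48 at 2 h, 8.36, 8.37 and 8.66 at 24 h and 7.52, 7.52 and 7.36 at 6 d. Of these groups, the one at 6 d lay wholly below the controls, with a change of -1.06 ± 0.15 (adjusted p = 1.24e-04).

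Col11a1, a minor fibrillar chain best known from cartilage, read 7.19, 7.52 and 8.46 in controls, 7.35, 7.61 and 8.54 at 2 h, 6.58, 6.79 and 7.49 at 24 h and 5.57, 5.87 and 6.12 at 6 d. Control replicate 3 was again the highest control, and the 6 d arrays lay below all of them. The 6 d change was -1.87 ± 0.43 (adjusted p = 0.00903), and the call was lost without control replicate 3 (-1.50) or Dex 6 d replicate 1 (-1.73). The remaining tested fibrillar chains were Col27a1 at -0.68 ± 0.37 (adjusted p = 0.372) and Col11a2 at 0.34 ± 0.26 (adjusted p = 0.622). Col27a1 was called lower without the outlying array, at 24 h (adjusted p = 0.0135) and at 6 d (adjusted p = 0.0121). In the fit of the control and 24 h arrays alone with the replicate block, Col27a1 (adjusted p = 0.00197) and Col11a1 (-0.77, adjusted p = 0.00159) were called lower at 24 h.

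**Figure D2:**
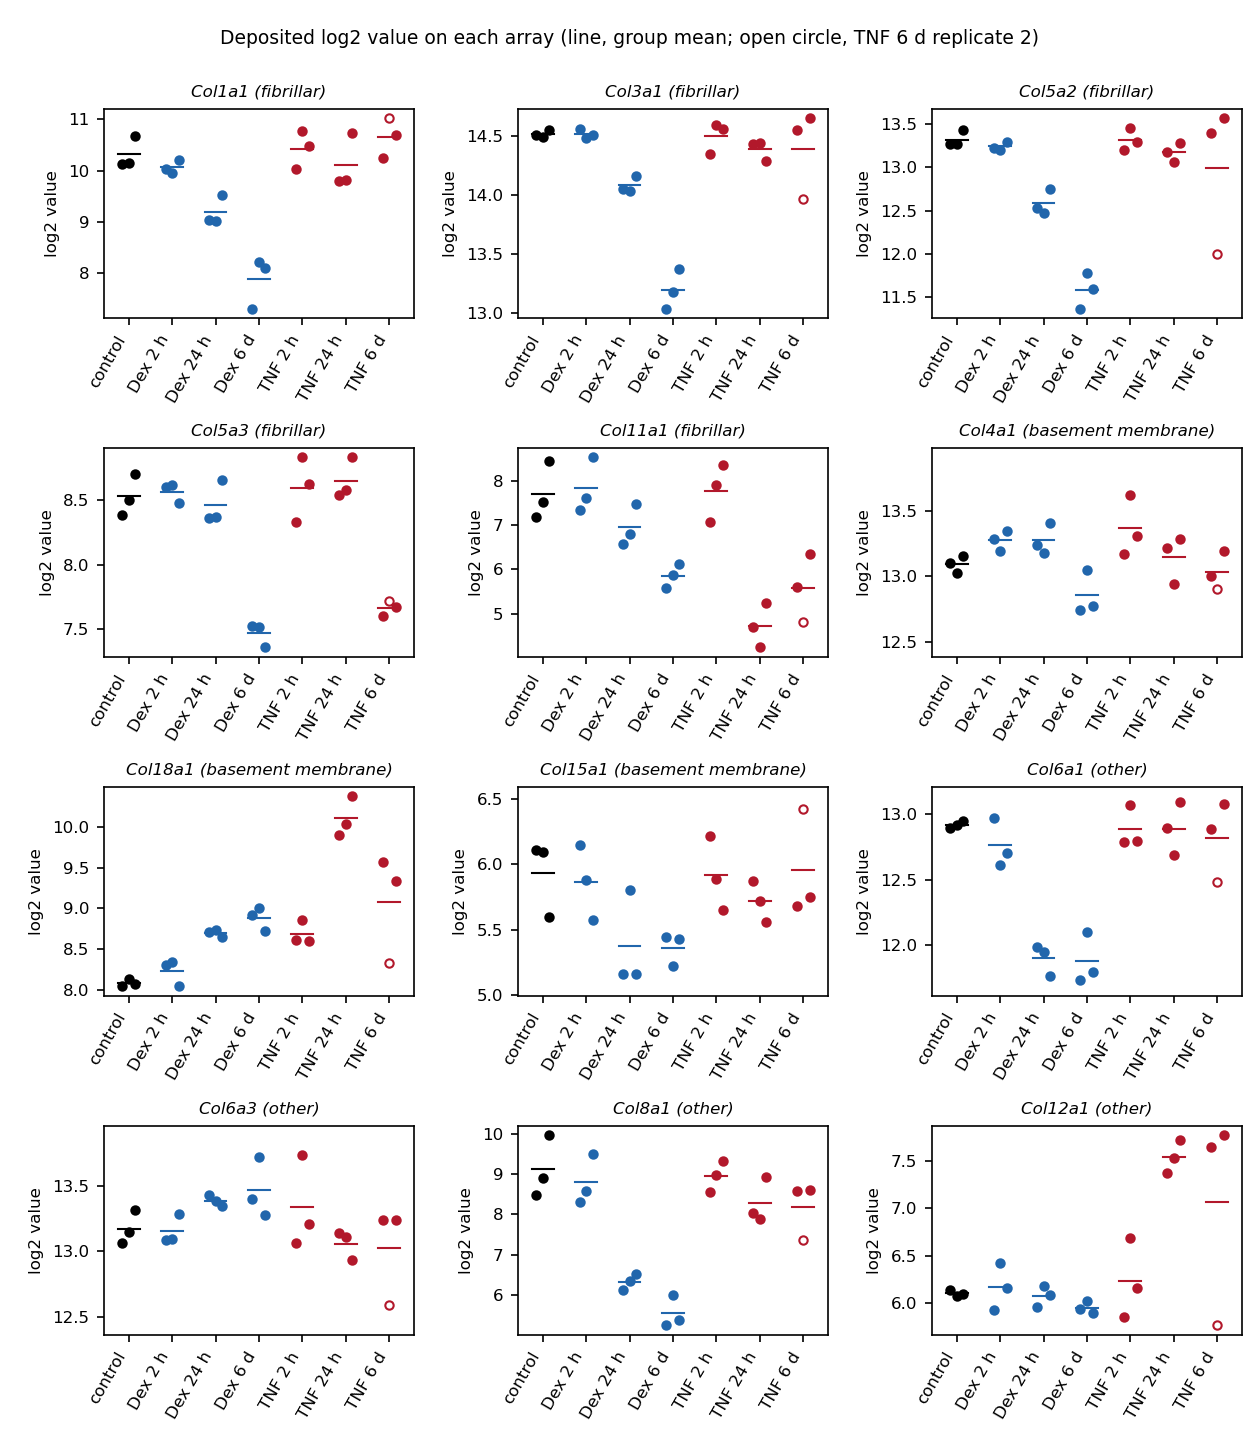
Deposited log2 value (y axis) of 12 collagen genes on each array of the 7 groups (x axis). Points are arrays, lines are group means and the open circle is TNF 6 d replicate 2. Col1a1, Col3a1 and Col5a2 step down from Dex 2 h to Dex 6 d while Col6a3 stays between 13.06 and 13.72 on the control and Dex arrays. Col12a1 reads 7.65 and 7.78 on 2 TNF 6 d arrays and 5.76 on the open circle.

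Among the other chains, the type VI chains did not share 1 direction after Dex. Type VI collagen assembles from alpha 1, alpha 2 and alpha 3 chains. Col6a1 read 12.89, 12.92 and 12.95 in controls, 12.97, 12.62 and 12.70 at 2 h, 11.99, 11.95 and 11.77 at 24 h and 11.73, 12.10 and 11.80 at 6 d. Col6a2 read 13.22, 13.10 and 13.25 in controls, then 13.16, 13.04 and 13.01 at 2 h, 11.93, 11.83 and 12.24 at 24 h and 11.46, 11.63 and 11.60 at 6 d. Both fell by 24 h, with no overlap with control at 24 h or 6 d. Col6a1 changed by -1.02 ± 0.16 (adjusted p = 5.17e-04) and -1.04 ± 0.16 (adjusted p = 2.16e-04), and Col6a2 by -1.19 ± 0.18 (adjusted p = 3.08e-04) and -1.63 ± 0.18 (adjusted p = 4.49e-06). Col6a3 read 13.06, 13.14 and 13.31 in controls, 13.09, 13.10 and 13.29 at 2 h, 13.43, 13.39 and 13.35 at 24 h and 13.40, 13.72 and 13.28 at 6 d. No Dex array of Col6a3 fell below the lowest control, and its 6 d change of 0.29 ± 0.18 (adjusted p = 0.472) was not called. Its 24 h change of 0.21 was called with the replicate block in the fit of those 6 arrays alone (adjusted p = 0.0376). Col6a1 and Col6a2 are neighbours on chromosome 10, and Col6a3 lies on chromosome 1. Whether the chains' changes differ from each other was not tested.

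Col8a1, a chain of the hexagonal network collagen made by vessel and mesenchymal cells, had the largest fall of the 27 chains at both later Dex times. It read 8.49, 8.91 and 9.96 in controls, 8.31, 8.58 and 9.50 at 2 h, 6.14, 6.34 and 6.52 at 24 h and 5.25, 6.01 and 5.40 at 6 d. The controls spread widely, with replicate 3 the highest, yet the highest 24 h array lay well under the lowest control. The change was -2.78 ± 0.41 (adjusted p = 2.88e-04) at 24 h and -3.57 ± 0.41 (adjusted p = 9.3e-06) at 6 d, or 6.89-fold and 11.8-fold lower. Col16a1, a FACIT chain on fibre surfaces, changed by -0.88 ± 0.19 (adjusted p = 0.00484) at 6 d. The 8 remaining chains of these families were not called at 6 d and changed by -0.31 (Col7a1) to 0.29 (Col6a3).

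Of the basement membrane chains, Col18a1 was the 1 called after Dex in the fit of all 21 arrays. Type IV sheets outside special tissues are built from Col4a1 and Col4a2, whose genes lie head to head on chromosome 8. Col4a1 read 13.10, 13.02 and 13.16 in controls, 13.29, 13.19 and 13.34 at 2 h, 13.24, 13.18 and 13.40 at 24 h and 12.75, 13.05 and 12.77 at 6 d. Col4a2 read 11.78, 11.77 and 11.87 in controls, then 11.83, 11.71 and 11.80 at 2 h, 12.10, 12.004 and 12.30 at 24 h and 11.49, 11.71 and 11.59 at 6 d. For both genes all 3 arrays at 24 h lay above the controls, by 0.18 ± 0.13 (adjusted p = 0.841) and 0.33 ± 0.18 (adjusted p = 0.571), and at 6 d the changes were -0.24 ± 0.13 (adjusted p = 0.399) and -0.21 ± 0.18 (adjusted p = 0.695). None of these 4 changes was called in the fit of all groups, with or without the outlying array. In the fit of the control and 24 h arrays alone, the 24 h rise of Col4a2 was called (adjusted p = 0.0335, or 0.00372 with the replicate block), and that of Col4a1 was called with the block (adjusted p = 0.0135) and not without it (adjusted p = 0.129).

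Col18a1, the multiplexin that carries the endostatin fragment, rose. It read 8.05, 8.14 and 8.08 in controls, 8.31, 8.35 and 8.05 at 2 h, 8.71, 8.74 and 8.65 at 24 h and 8.93, 9.01 and 8.73 at 6 d. All 6 arrays of the later times lay above all controls. The change of 0.80 ± 0.23 (adjusted p = 0.0388) at 6 d was close to the threshold. It lost its call without any of 12 arrays (each control, Dex 24 h and Dex 6 d array, Dex 2 h replicates 1 and 2, TNF 2 h replicate 3), with values of 0.74 to 0.88. It was also lost when each array was centred on its median (adjusted p = 0.0754) and with no filter on dim genes (adjusted p = 0.0564). Without the outlying array it was called at 24 h (adjusted p = 0.00211) and at 6 d (adjusted p = 8.38e-05). The 24 h change of 0.61 was also called in the fit of those 6 arrays with the replicate block (adjusted p = 0.00132). The related multiplexin Col15a1 read 6.11, 6.09 and 5.59 in controls, 6.14, 5.88 and 5.57 at 2 h, 5.16, 5.80 and 5.16 at 24 h and 5.44, 5.22 and 5.43 at 6 d. The change at 6 d was -0.57 ± 0.22 (adjusted p = 0.159), called lower without the outlying array (adjusted p = 0.0328). At 24 h the change was -0.56, called with the replicate block in the fit of those 6 arrays alone (adjusted p = 0.0305). Col4a5 and Col4a6 changed by -0.44 ± 0.28 and -0.06 ± 0.13 at 6 d and were not called.

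At 2 h of Dex 0 of 27 collagens were called by limma, beside 2.48% of all genes tested (0 without the outlying array, beside 7.12%). Array weights called 3, and the changes ran from -0.35 for Col25a1 to 0.18 for Col4a1. At 24 h 5 chains fell and 0 rose, beside 2.11% and 2.06% of all genes. They were Col8a1, Col6a2, Col1a1, Col6a1 and Col1a2. Without the outlying array 9 fell and 1 rose, beside 6.79% and 6.39%. The same replicate numbers deviated together in this comparison. The replicate block in the fit of all groups also called 5 chains, a fit of these 6 arrays alone called 11, and that fit with the block called 15 (4 higher, 11 lower). The share of all genes called is not given for these fits or for array weights. Their counts are therefore not read as particular to collagens. The count was 3 without any 1 of 8 arrays (each control, Dex 2 h replicates 1 and 2, Dex 24 h replicates 1 and 2, TNF 2 h replicate 3), and 10 without TNF 6 d replicate 2. For the fits that leave out any of those 8 the share of all genes called is not given.

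Between 24 h and 6 d of Dex, 2 fibrillar chains fell and 0 rose, beside 0.436% and 0.247% of all genes. Col3a1 dropped by another 1.85-fold, a change of -0.89 ± 0.13 (adjusted p = 0.00243), and Col5a3 changed by -0.998 ± 0.15 (adjusted p = 0.00269). At 24 h Col5a3 had changed by -0.07 against control and was not called. For comparison, Col6a1, which had fallen by 24 h, changed by -0.02 ± 0.16 between the times and was not called. Without the outlying array 8 chains fell between the times and 0 rose, beside 3.38% and 1.12% of all genes, and 6 of them were fibrillar (Col1a1, Col1a2, Col3a1, Col5a1, Col5a2 and Col5a3). The others were Col4a1 at -0.42 (adjusted p = 0.0362) and Col4a2 at -0.54 (adjusted p = 0.0314). Col1a1 changed by -1.31 ± 0.30 (adjusted p = 0.0501) with all arrays, and it was called without TNF 24 h replicate 3 (adjusted p = 0.0287), TNF 6 d replicate 1 (adjusted p = 0.0434) or TNF 6 d replicate 2 (adjusted p = 0.00446).

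Short stretches upstream of 5 of these genes are shown for their Dex values: Col1a2, Col3a1, Col6a1 and Col8a1 fell at 6 d, and Col6a3 was not called. Each is the 250 bases before the annotated start in RefSeq's GRCm38.p6 table, 5' to 3' on the gene's own strand, where 33 of the 42 members had an entry and Col1a1 and Col5a2 did not. Capitals mark CCAAT (the CCAAT box), TATAAA (the TATA box), GGGCGG (known as the core bound by Sp1), TGACTCA (known from AP-1) or AGAACA (known from the glucocorticoid receptor) on either strand, a motif on the other strand appearing as its reverse complement, and no motif contains another.
Col1a2, chr6:4505368-4505617, plus strand: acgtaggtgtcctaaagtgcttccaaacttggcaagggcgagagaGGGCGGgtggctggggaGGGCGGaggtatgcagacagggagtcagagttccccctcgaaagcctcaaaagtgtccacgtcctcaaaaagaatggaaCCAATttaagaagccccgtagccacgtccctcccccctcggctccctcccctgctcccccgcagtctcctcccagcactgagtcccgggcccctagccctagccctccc
Col3a1, chr1:45311288-45311537, plus strand: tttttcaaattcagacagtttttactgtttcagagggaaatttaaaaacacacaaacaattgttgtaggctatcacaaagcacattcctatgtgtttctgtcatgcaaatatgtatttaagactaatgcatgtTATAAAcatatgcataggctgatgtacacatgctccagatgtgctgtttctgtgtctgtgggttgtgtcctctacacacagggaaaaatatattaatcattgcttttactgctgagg
Col6a1, chr10:76726045-76726294, minus strand: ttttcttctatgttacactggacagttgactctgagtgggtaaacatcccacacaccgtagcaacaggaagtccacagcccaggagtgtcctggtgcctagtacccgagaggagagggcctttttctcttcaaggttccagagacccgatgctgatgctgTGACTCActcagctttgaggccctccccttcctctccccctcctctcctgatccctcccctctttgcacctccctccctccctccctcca
Col8a1, chr16:57754738-57754987, minus strand: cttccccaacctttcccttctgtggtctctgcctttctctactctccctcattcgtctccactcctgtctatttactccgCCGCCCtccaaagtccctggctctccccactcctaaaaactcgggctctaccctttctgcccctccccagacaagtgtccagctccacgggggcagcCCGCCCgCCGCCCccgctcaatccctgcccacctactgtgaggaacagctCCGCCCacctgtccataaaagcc
Col6a3, chr1:90843972-90844221, minus strand: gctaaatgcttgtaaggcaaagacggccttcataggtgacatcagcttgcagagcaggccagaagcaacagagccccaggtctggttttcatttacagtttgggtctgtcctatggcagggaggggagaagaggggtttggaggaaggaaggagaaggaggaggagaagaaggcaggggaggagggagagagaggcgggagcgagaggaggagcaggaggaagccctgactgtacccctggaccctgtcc

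The Col1a2 window held 1 CCAAT and 2 GGGCGG, the Col8a1 window 4 GGGCGG and no TATAAA, and the Col3a1 window 1 TATAAA. The Col6a1 window held the only TGACTCA of the 36 member windows, and the Col6a3 window held none of the 5. Over the 36 windows of the 33 members, GGGCGG was present in 21 and CCAAT in 13, against 32.7% and 33.8% of all 32851 windows of the table. AGAACA was present in 2 member windows, those of Col20a1 and Col9a1, against 16.1% of all, and TATAAA in 5 against 12.4%. TGACTCA was in 4.46% of all windows. These are matches of letters in windows of this length and describe no binding.

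After 24 h of TNF Col18a1 rose 4.03-fold and Col12a1 2.71-fold on its highest-mean probe set, and Col11a1 fell to values under 5.34. These were the calls at 24 h, 2 of 27 higher and 1 of 27 lower, shares near the 5.41% of all genes that were higher and the 3.27% that were lower. The median change was -0.13 over the 9 fibrillar chains, 0.05 over the 6 basement membrane chains and -0.15 over the 12 others, beside -0.03 over all genes. Without the outlying array Col6a2 joined them as lower, at -0.48 (adjusted p = 0.0105), which made 2 higher and 2 lower beside 13.2% and 12.4% of all genes. Without TNF 24 h replicate 3 the count was 2, since Col12a1 lost its call. That array also had the wider gap between 3' and 5' control probe sets. For the fit without it the share of all genes called is not given. On these arrays 7 of 10 adipocyte markers fell, beside 3.27% of all genes, with a mean of 11.50 to 12.02 against 12.71 to 12.81 in controls. Their part was not tested.

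Col18a1 read 8.61, 8.86 and 8.60 after 2 h of TNF, 9.89, 10.03 and 10.37 after 24 h and 9.57, 8.34 and 9.34 after 6 d, against the controls' 8.05, 8.14 and 8.08. Every TNF array lay above every control, with the outlying array the lowest of the 9. The 24 h rise was 2.01 ± 0.23 (adjusted p = 7.13e-06). At 6 d it was 0.996 ± 0.23 (adjusted p = 0.00831), or 1.37 ± 0.14 (adjusted p = 8.05e-07) without the outlying array. From 24 h to 6 d it changed by -1.02 (adjusted p = 0.0141, and -0.64 without the outlying array), a call lost without TNF 24 h replicate 3 (-0.88). Already at 2 h the change was 0.60 ± 0.23, called without the outlying array (adjusted p = 0.00272) and not with it (adjusted p = 0.263).

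Col12a1, a FACIT chain of stressed and healing connective tissue, read 6.14, 6.07 and 6.10 in controls, 5.85, 6.69 and 6.16 at 2 h of TNF, 7.38, 7.53 and 7.72 at 24 h and 7.65, 5.76 and 7.78 at 6 d. Apart from the outlying array, the 24 h and 6 d arrays lay more than 1 unit above all controls. The change was 1.44 ± 0.35 (adjusted p = 0.0121) at 24 h, lost without TNF 24 h replicate 3 (1.35). At 6 d it was 0.96 ± 0.35 (adjusted p = 0.0697) with all arrays and 1.61 ± 0.18 (adjusted p = 2.03e-06) without replicate 2. On the Dex arrays it read 5.93, 6.42 and 6.16 at 2 h, 5.96, 6.18 and 6.08 at 24 h and 5.93, 6.02 and 5.89 at 6 d, with no call at any time. A second Col12a1 probe set that passed the filter did not share the TNF rise, at 0.05 at 24 h and 0.09 at 6 d.

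Col11a1 read 7.06, 7.91 and 8.37 at 2 h of TNF, 4.68, 4.23 and 5.25 at 24 h and 5.598, 4.80 and 6.36 at 6 d. The 2 h arrays overlapped the controls and all later arrays lay below them, those of 24 h under 5.34. The change was -2.998 ± 0.43 (adjusted p = 9.86e-05) at 24 h and -2.13 ± 0.43 (adjusted p = 0.00337) at 6 d, or -1.74 ± 0.42 (adjusted p = 0.00498) without replicate 2. Col5a3 fell late: it read 8.33, 8.83 and 8.62 at 2 h, 8.54, 8.58 and 8.83 at 24 h and 7.604, 7.72 and 7.67 at 6 d. Here the outlying array lay with its replicates. The 6 d change was -0.86 ± 0.15 (adjusted p = 0.00123) with all arrays and -0.89 ± 0.15 (adjusted p = 1.83e-04) without it. Between 24 h and 6 d Col5a3 changed by -0.99 ± 0.15 (adjusted p = 6.82e-04). Under cyclic loess normalization both of these Col5a3 calls were lost, at -0.52 (adjusted p = 0.083) and -0.65 (adjusted p = 0.0546).

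Of the chains that fell under Dex, Col1a1, Col1a2, Col3a1, Col5a1, Col5a2, Col6a1 and Col6a2 were not called against control at any TNF time in the fit of all 21 arrays. Col1a1 read 10.03, 10.77 and 10.48 at 2 h, 9.79, 9.82 and 10.73 at 24 h and 10.25, 11.02 and 10.70 at 6 d. Col1a2 read 14.22, 14.38 and 14.27 at 2 h, 14.15, 14.08 and 14.17 at 24 h and 14.46, 13.96 and 14.62 at 6 d. Col3a1 read 14.35, 14.60 and 14.57 at 2 h, 14.43, 14.45 and 14.29 at 24 h and 14.55, 13.97 and 14.65 at 6 d. All 3 genes overlapped the controls at 2 h and, with replicate 2 counted, at 6 d, while the 24 h arrays of Col1a2 and Col3a1 lay just below them. Col5a1 read 10.86, 11.30 and 10.82 at 2 h, 10.38, 10.38 and 10.76 at 24 h and 10.53, 11.29 and 10.88 at 6 d. Col5a2 read 13.20, 13.45 and 13.29 at 2 h, 13.17, 13.06 and 13.28 at 24 h and 13.39, 12.001 and 13.56 at 6 d. For Col5a2 replicate 2 was more than 1 unit under its group. At 24 h the changes of Col1a1, Col1a2, Col3a1, Col5a1 and Col5a2 were -0.20, -0.11, -0.13, -0.37 and -0.14, none called. Col1a2 was called at 6 d without replicate 2, higher by 0.30 ± 0.09 (adjusted p = 0.0153), and under cyclic loess with all arrays (0.47, adjusted p = 0.00868).

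Of the type VI chains under TNF, Col6a1 read 12.79, 13.07 and 12.80 at 2 h, 12.90, 12.69 and 13.09 at 24 h and 12.89, 12.48 and 13.08 at 6 d. Col6a2 read 13.07, 13.45 and 12.98 at 2 h, 12.70, 12.45 and 12.99 at 24 h and 12.77, 13.49 and 13.001 at 6 d. Replicate 2 was the lowest 6 d array for Col6a1 and the highest for Col6a2. Col6a3 read 13.06, 13.73 and 13.21 at 2 h, 13.14, 13.11 and 12.93 at 24 h and 13.24, 12.59 and 13.24 at 6 d. None of the 3 was called at 6 d, with changes of 0.07, -0.31 and 0.07 without replicate 2. Col8a1 read 8.56, 8.97 and 9.33 at 2 h, 8.05, 7.88 and 8.93 at 24 h and 8.58, 7.36 and 8.60 at 6 d, and its changes of -0.83 ± 0.41 and -0.94 ± 0.41 at the later times were not called.

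At 6 d of TNF 1 collagen rose and 3 fell with all arrays, beside 4.52% and 10.7% of all genes, and 4 rose and 2 fell without replicate 2, beside 10.5% and 9.93%. The median of all tested genes was -0.23 with all arrays, -0.05 without replicate 2 and 0.01 after cyclic loess, so small changes at this time move with the scaling. The class medians were -0.13 (fibrillar), -0.02 (basement membrane) and -0.10 (others) with all arrays, and 0.23, 0.26 and 0.26 after cyclic loess. Col11a1, Col5a3 and Col18a1 were called both ways. In a fit of the TNF 6 d and control arrays alone no collagen was called by limma (adjusted p = 0.22, 0.243 and 0.422 for these 3). Col7a1, the anchoring fibril chain, was called with replicate 2 and not without it. Its 6 d arrays read 6.43, 5.91 and 6.67 against 6.88, 7.06 and 6.82 in controls, and replicate 2 was the lowest. Its change was -0.58 ± 0.17 (adjusted p = 0.0328) with all arrays and -0.37 ± 0.15 (adjusted p = 0.0905) without replicate 2, and the call was also lost without control replicate 1, 2 or 3 (-0.60, -0.51 and -0.63). On the other TNF and Dex arrays Col7a1 read 6.51, 6.72 and 6.59 (TNF 2 h), 6.73, 6.75 and 6.72 (TNF 24 h), 6.84, 6.57 and 6.85 (Dex 2 h), 6.69, 6.78 and 7.07 (Dex 24 h) and 6.58, 6.86 and 6.39 (Dex 6 d). Without replicate 1 in place of replicate 2, a fit that keeps the outlying array, the count was 7 (3 higher, 4 lower). For that fit the share of all genes called is not given, so its count is not read as particular to collagens.

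Among the type IV chains, Col4a5 was called at TNF 6 d without replicate 2 and not with it. Col4a5, which forms a network with Col4a6 in smooth muscle and with Col4a3 and Col4a4 in kidney, read 10.09, 10.12 and 10.01 in controls and 10.95, 9.98 and 11.10 at 6 d of TNF, and replicate 2 alone did not lie above the controls. It rose by 0.95 ± 0.23 (adjusted p = 0.00434) without replicate 2, and the change was 0.61 ± 0.28 (adjusted p = 0.13) with it, or 1.02 (adjusted p = 0.0018) with it under cyclic loess. The second probe set of Col4a5 changed by -0.46 at TNF 6 d with all arrays, the other direction, and by 0.70 without replicate 2. On the Dex arrays the highest-mean probe set read 10.21, 10.25 and 10.08 at 2 h, 9.93, 9.99 and 9.86 at 24 h and 9.55, 10.11 and 9.24 at 6 d. On the other TNF arrays it read 9.89, 10.69 and 10.14 at 2 h and 10.34, 10.32 and 9.71 at 24 h. The main sheet chain Col4a1 read 13.17, 13.62 and 13.31 at 2 h, 13.22, 12.94 and 13.29 at 24 h and 13.001, 12.90 and 13.19 at 6 d of TNF. Its partner Col4a2 read 11.86, 12.18 and 11.91 at 2 h, 11.82, 11.50 and 12.24 at 24 h and 11.58, 11.29 and 11.91 at 6 d. Col15a1 read 6.22, 5.89 and 5.65 at 2 h, 5.88, 5.72 and 5.56 at 24 h and 5.68, 6.42 and 5.75 at 6 d. None of these 3 genes was called against control at any TNF time. At 2 h of TNF 0 collagens were called by limma, beside 3.82% of all genes, and 1, Col18a1, without replicate 2, beside 10.7%.

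Between 24 h and 6 d of TNF 2 chains were lower at the later time and 0 were higher, beside 4.78% and 1.21% of all genes. They were the multiplexin Col18a1 and the type V chain Col5a3. Without TNF 6 d replicate 2 both were kept, Col1a2 and Col4a5 were called higher, by 0.41 ± 0.09 (adjusted p = 0.00328) and 0.90 ± 0.23 (adjusted p = 0.0137), and 4.1% of all genes were higher and 5.09% lower. Without TNF 6 d replicate 1, a fit that keeps the outlying array, the count was 7 (4 higher, 3 lower). For that fit the share of all genes called is not given, so its count is not read as particular to collagens.

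**Figure D3:**
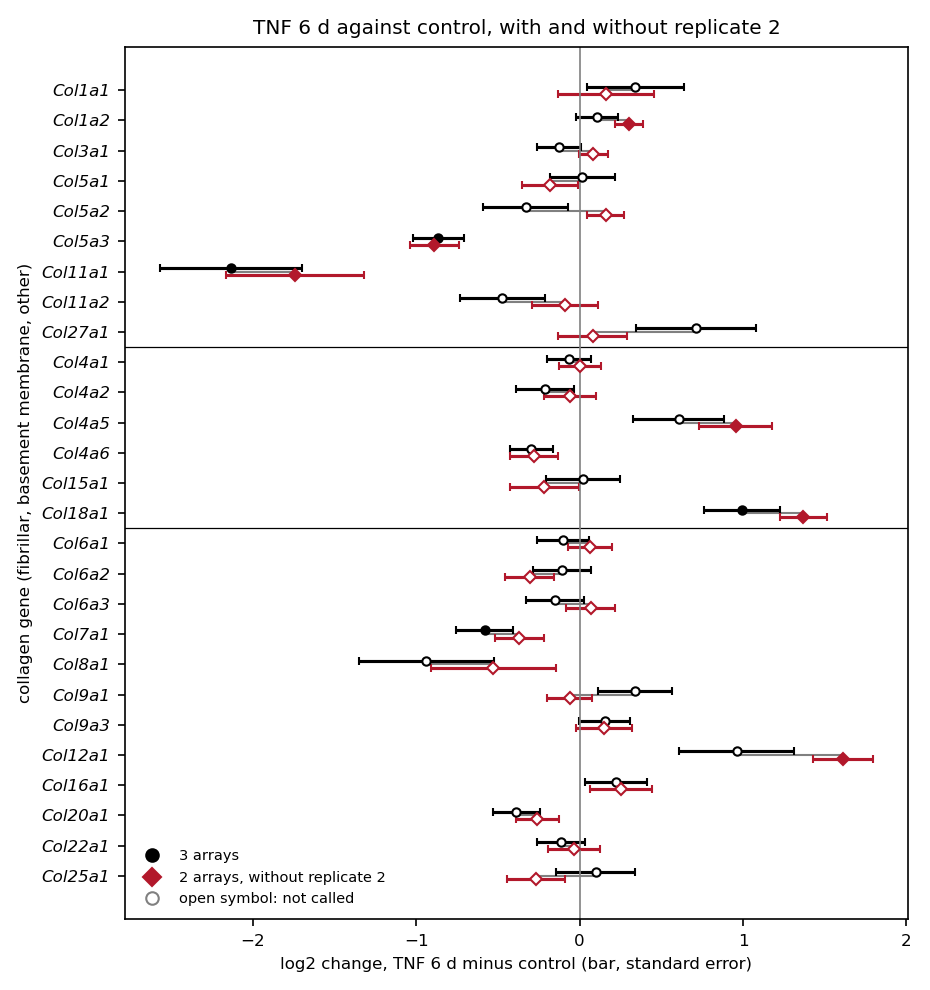
Log2 change at TNF 6 d against control (x axis, bars are limma standard errors) for the 27 tested collagen genes (y axis), with all 3 arrays (black) and without replicate 2 (red). Filled symbols are called. Col12a1 moves from 0.96 to 1.61 and Col27a1 from 0.71 to 0.08, whereas Col5a3 stays at -0.86 and -0.89.

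Set directly against each other, Dex and TNF differed at 24 h and 6 d. At 6 d 12 chains were lower after Dex than after TNF and 1 was higher, beside 7.81% and 15.9% of all genes, and 6 of the 9 fibrillar chains were among the lower. Col1a1 differed by -2.79 ± 0.30 (adjusted p = 2.35e-06), or -2.60 without TNF 6 d replicate 2. Col8a1 differed by -2.63 ± 0.41 (adjusted p = 1.72e-04), or -3.04 without that array, and Col6a2 by -1.53 ± 0.18 (adjusted p = 6.48e-06). The others were Col5a2, Col27a1, Col3a1, Col12a1, Col16a1, Col4a5, Col1a2, Col6a1 and Col5a1, from -1.40 to -0.85. Without TNF 6 d replicate 2 all 12 were kept and Col18a1 was added at -0.57, which made 13 lower and 0 higher, beside 15.8% and 14.4% of all genes. The difference for Col27a1 was -0.76 without that array against -1.39 with it, and for Col12a1 -1.77 against -1.12. Col11a2 was the 1 chain higher after Dex, at 0.81 ± 0.26 (adjusted p = 0.0308), and it lost the call without TNF 6 d replicate 2 (0.43), Dex 6 d replicate 1 (0.75) or replicate 3 (0.79). Col12a1 lost it under median centring (adjusted p = 0.0586) and without any 1 Dex 6 d array (-1.11, -1.15 and -1.09) or TNF 6 d replicate 1 or 3 (-0.82 and -0.76), and Col4a5 without Dex 6 d replicate 3 (-0.85). With the mean of all probe sets Col4a5 differed by -0.52 (adjusted p = 0.327) and Col5a1 by -0.42 (adjusted p = 0.0557), neither called. A fit of these 6 arrays alone called 3 chains, and the share of all genes called in it is not given.

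At 24 h 6 chains were lower after Dex than after TNF and 1 was higher, beside 7.56% and 5.89% of all genes. The lower ones were Col8a1 at -1.95 ± 0.41, Col12a1 at -1.47 ± 0.35, Col18a1 at -1.40 ± 0.23, Col6a1 at -0.99 ± 0.16, Col1a1 at -0.93 ± 0.30 and Col6a2 at -0.71 ± 0.18. Col11a1 was higher after Dex by 2.23 ± 0.43 (adjusted p = 0.00129). Without the outlying array 10 were lower and 1 was higher, beside 16.1% and 16.9%, and Col27a1, Col5a2, Col1a2 and Col3a1 joined. The same replicate numbers deviated together here too, and the replicate block called 8 chains in the fit of all groups, Col1a2 (adjusted p = 0.048) among them. The fit of these 6 arrays alone called 12, with the block or without it. For these fits the share of all genes called is not given, so their counts are not read as particular to collagens. Col1a1 lost its call without any of 11 arrays (-0.62 without TNF 24 h replicate 3, and -0.84 to -0.93 without control replicates 1 and 2, each Dex 2 h array, Dex 24 h replicates 1 and 2, TNF 2 h replicate 3, or replicate 3 of either 6 d group) and Col6a2 without Dex 24 h replicate 2 (-0.63) or TNF 24 h replicate 3 (-0.57). Both calls were lost under cyclic loess (adjusted p = 0.0718 and 0.0889), and that of Col1a1 with no filter (adjusted p = 0.0642) or the mean of all probe sets (adjusted p = 0.0591). At 2 h 0 chains differed between the agents by limma, beside 5.97% of all genes, and without the outlying array 1 did, beside 14.8% (Col18a1, -0.45, adjusted p = 0.0199).

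Several collagens have more than 1 probe set, and the size of the Dex fall depended on which was read. Of the 27 members with several probe sets, 15 had 18 further probe sets that passed the filter. At Dex 6 d both probe sets of a pair were called lower in 8 pairs, the highest-mean one alone was called in 3, the other alone in 1 and neither in 6, and no pair was called in opposite directions. For Col3a1 the second probe set changed by -3.07 ± 0.30 against -1.32 ± 0.13 for the first. For Col1a2 it changed by -1.84 ± 0.19 against -0.85 ± 0.13, and for Col5a2 by -2.41 ± 0.30 against -1.73 ± 0.26. On the first probe sets the controls of Col1a2 and Col3a1 lie within 1 unit of 15.06, the highest value deposited, and whether that limits their measured fall was not tested. For Col1a1 and Col8a1 the order was the other way, at -1.75 ± 0.35 and -2.56 ± 0.37 on the second probe sets. Both probe sets of Col18a1 rose at TNF 24 h, the second by 2.10 ± 0.23, and both of Col11a1 fell, the second with a change of -2.06 ± 0.42. At TNF 6 d the second probe set of Col11a1 was not called with all arrays (-0.57 ± 0.42). Without TNF 6 d replicate 2 its change was -1.20, beside -1.74 on the first probe set. The second probe set of Col12a1 did not share the TNF rise: it changed by 0.05 ± 0.14 at 24 h and 0.09 ± 0.14 at 6 d, neither called.

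**Figure D4:**
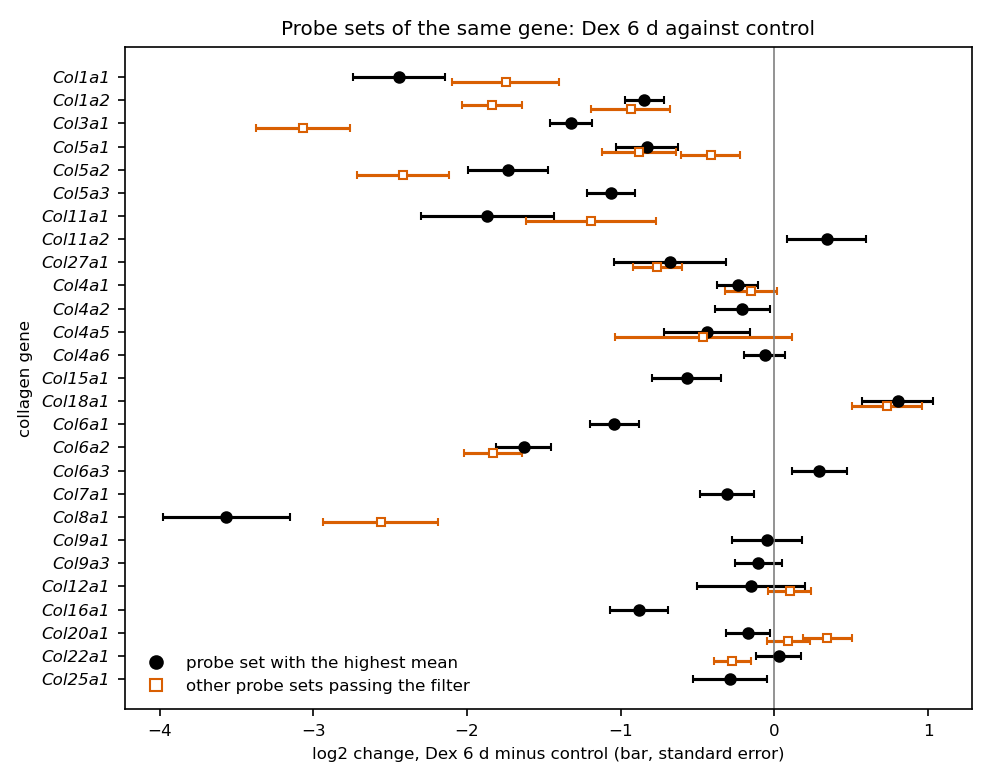
Log2 change at Dex 6 d against control (x axis, bars are limma standard errors) for the 27 tested collagen genes (y axis). Black circles are the probe set with the highest mean and orange squares the other probe sets of the same gene that passed the filter. Col3a1 reads -1.32 on 1 probe set and -3.07 on the other.

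Genes that make, cross-link, bind or break down collagen were taken as a list of 66, of which 50 were tested. After 6 d of Dex 16 of the 50 fell and 0 rose, beside 5.08% and 3.22% of all genes, with a median of -0.42. Without the outlying array 24 fell and 2 rose, beside 13.5% and 10.4%. The 4 largest falls were those of Timp3, Plod2, P4ha1 and Lamb3. Plod2, a lysyl hydroxylase whose product fixes the cross-link type, changed by -2.33 ± 0.30 (adjusted p = 3.31e-05) and P4ha1, a catalytic chain of prolyl 4-hydroxylase, by -2.29 ± 0.27 (adjusted p = 1.09e-05). Of the 14 synthesis and folding genes tested, 5 fell, as did 2 of 7 for processing and cross-linking, 2 of 5 receptors, 3 of 12 for breakdown and 4 of 12 basement membrane partners. Timp3, a matrix-bound protease inhibitor, changed by -2.55 ± 0.19 and Lamb3, a laminin chain, by -1.76 ± 0.31. At 24 h of Dex, when 2.11% of all genes fell and 2.06% rose, 8 of the 50 fell, led by the same 4 genes (-2.28, -1.18, -1.29 and -1.19), and 1 rose, Mmp8, a collagenase, by 1.55 ± 0.31, and at 2 h, when 2.48% of all genes were called, Plod2 alone was, higher by 1.38 ± 0.30.

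At 24 h of TNF 6 of the 50 rose and 4 fell, beside 5.41% and 3.27% of all genes. Of the 12 breakdown genes 4 rose and 2 fell. Mmp3, the protease stromelysin, rose by 4.22 ± 0.63, Timp1, an inhibitor of such proteases, by 3.95 ± 0.55, Agrn, a basement membrane proteoglycan, by 1.70 ± 0.18 and Mmp9, a gelatinase, by 1.40 ± 0.30. Timp4 changed by -3.27 ± 0.18 and Lox, which starts collagen cross-links, by -1.41 ± 0.35, with Timp3 at -1.06 and Loxl1 at -0.56. At 6 d 12 rose and 5 fell with all arrays, beside 4.52% and 10.7% of all genes, and 23 rose and 4 fell without replicate 2, beside 10.5% and 9.93%. Of the breakdown genes 6 rose with all arrays and 9 without replicate 2. Mmp8 changed by 2.02 with it and 2.53 without, Mmp9 by 1.75 and 2.27, and Mmp14, a membrane-bound collagenase, by 1.26 and 1.22. Mmp11 changed by 1.25 and 1.88. The 4 largest falls were those of Timp4, Lamb3, P4ha1 and Plod1, at -2.08, -1.75, -1.29 and -1.29. At 2 h of TNF 1 of the 50, the collagen receptor Ddr1, was called, at 0.54 ± 0.14, beside 3.82% of all genes.

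**Figure D5:**
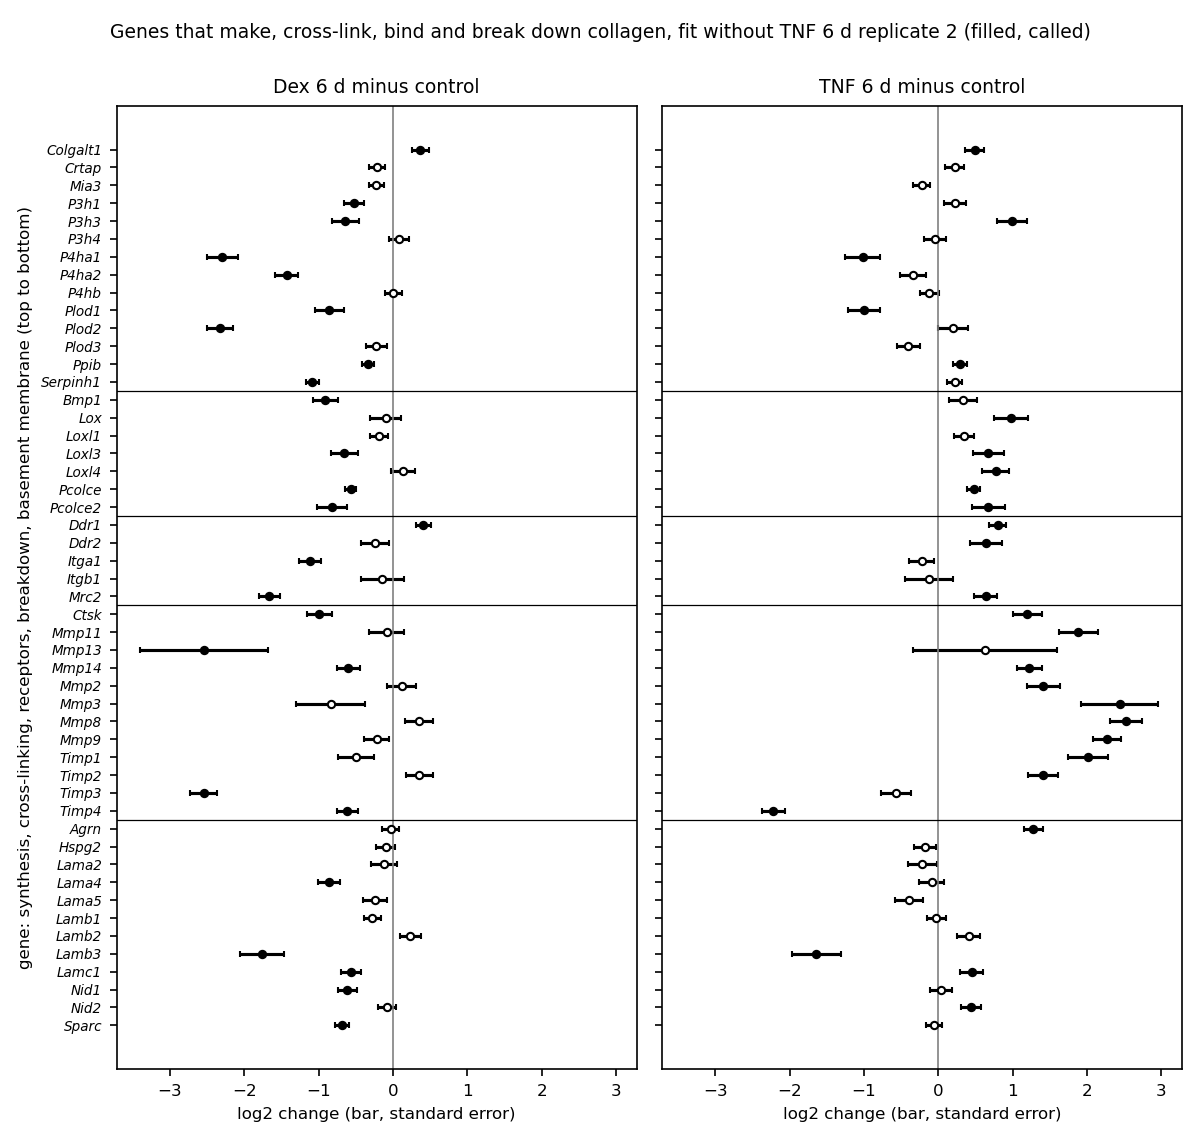
Log2 change against control (x axis, bars are limma standard errors) of the 50 tested genes of collagen synthesis, cross-linking, binding, breakdown and basement membranes (y axis), at Dex 6 d (left) and TNF 6 d (right), in the fit without TNF 6 d replicate 2. Filled circles are called. On the left 24 are called lower and 2 higher, and on the right 4 lower and 23 higher.

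Markers of several cell types were read as well. The preadipocyte and fibroblast mean was 9.47 to 9.62 at Dex 24 h and 9.91 to 10.54 at TNF 6 d (10.34 to 10.54 without replicate 2). At Dex 6 d 4 of the 8 tested fell, beside 5.08% of all genes (Pdgfrb, Fn1, Postn and Thy1, by -1.65, -1.62, -1.80 and -1.20). Pdgfra, another marker of the same cells, changed by 0.38 ± 0.26 and was not called. The adipocyte mean was 12.63 to 12.78 at Dex 6 d, so it overlapped the controls, and 11.42 to 12.09 at TNF 6 d, when 7 of the 10 fell, beside 10.7% of all genes. Myofibroblast and smooth muscle markers averaged 6.35 to 6.45 in controls, 6.01 to 6.18 at Dex 6 d and 6.75 to 6.88 at TNF 24 h. Of the 4 tested, 2 rose at TNF 24 h, Acta2 by 2.30 ± 0.23 and Tagln by 1.33 ± 0.22. With all arrays 0 fell, and 5.41% of all genes rose and 3.27% fell. Without TNF 6 d replicate 2, 2 rose and 2 fell, beside 13.2% and 12.4% of all genes. The 8 macrophage and leukocyte markers averaged 4.83 to 4.96 in controls and 5.30 to 5.50 at TNF 24 h, and the 6 endothelial markers 4.50 to 4.94 over all arrays. Only 4 of those 8 and 1 of those 6 passed the filter, and the endothelial means lay under 5.34. These means do not show that such cells were present in cultures of the 3T3-L1 line. The 4 cell cycle markers averaged 5.96 to 6.25 in controls, 6.37 to 7.35 at Dex 6 d and 6.09 to 7.16 at TNF 6 d. The part of any of these lists in the collagen changes was not tested.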

How the data were processed

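The 21 arrays were Affymetrix mouse genome arrays of total RNA. The authors deposited 1 log2 value per probe set and array, made with RMA, which subtracts background, quantile normalizes and summarises probes, per the submitters' processing notes (no version is given in the sources used here). Quantile normalization gives arrays like distributions, so changes are relative to the other genes.

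From the deposited log2 values, probe sets naming 1 gene were kept (34958 of 45101), symbols were updated through Entrez identifiers, and each gene was read from its highest-mean probe set. The 12156 genes with at least 3 arrays above the median of 5.34 were fitted with limma 3.58.1 in R 4.3.3 (7 group means, all 21 arrays, moderated variance with a trend), with Benjamini-Hochberg adjustment. The 3 arrays per group limit the precision. Each p-value sets a difference of group means against the spread between arrays within groups, estimated over all 7 groups. Motifs and figures were made with Python 3.11.15, pandas 2.3.3 and matplotlib 3.10.9. The fit was tested on simulated data.

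The members and lists were chosen with earlier results of these data known. Array values are given for the main chains of types I, III, IV, V, VI, XV and XVIII and for called members among the 4 largest rises or falls of a treated group, and pathway genes are named when called, up to 4 per direction. The collagen pathway list and the marker lists were written by hand. Replicate numbers were taken to pair arrays where every same-numbered pair deviated from its group means with r over 0.1. That held for Dex 24 h against control (r of 0.233 to 0.447) and Dex 24 h against TNF 24 h (0.207 to 0.270), a pairing that comes from the data and the shared numbers. Alternatives were other filters, probe set rules, scalings, the groups fitted, the block, array weights and each array left out. Coordinates other than those of the promoter table are not used here.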

Additional observations from a re-analysis of the deposited data

Results flagged for a closer look

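In 4 cases a chain's change under 1 agent differed between 24 h and 6 d by the test of that difference itself (limma, all 21 arrays). Under Dex, Col3a1 changed from 24 h to 6 d by -0.89 (adjusted p = 0.00243) and Col5a3 by -0.998 (adjusted p = 0.00269), and every 6 d array lay below every 24 h array. Under TNF, Col5a3 changed by -0.99 (adjusted p = 6.82e-04) and Col18a1 by -1.02 (adjusted p = 0.0141). Without TNF 6 d replicate 2 the TNF differences were -1.01 and -0.64.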

How the results depend on the processing

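The counts are of the 27 tested collagens called, compared with those from all 21 arrays: 0 (Dex 2 h), 5 (Dex 24 h), 12 (Dex 6 d), 0 (TNF 2 h), 3 (TNF 24 h) and 4 (TNF 6 d) against control, 0, 7 and 13 for Dex against TNF at 2 h, 24 h and 6 d, and 2 each for 6 d against 24 h of Dex and of TNF. For the settings that follow, no share of all genes is given beside the counts, which show only how calls move with the processing. With no filter on dim genes Dex 24 h gave 3. Cyclic loess gave 1 at TNF 2 h, 1 for Dex against TNF at 2 h and 4 for TNF 6 d against 24 h. At TNF 6 d it called 1 fibrillar, 2 basement membrane and 1 other chain higher, and 1 fibrillar and 1 other chain lower. Not every count is listed for each setting, and those left out here were not all the same as with all 21 arrays. Fits of only the 2 groups compared gave 11 at Dex 24 h, 1 at TNF 2 h, 0 at TNF 6 d, 12 and 3 for Dex against TNF at 24 h and 6 d, 9 for Dex 6 d against 24 h and 0 for TNF 6 d against 24 h. The replicate block in the fit of all groups gave 4 for Dex 6 d against 24 h. It ended the call of Col18a1 at Dex 6 d (adjusted p = 0.0552) and made that of Col1a1 between the Dex times (adjusted p = 0.0111). The replicate block with only 2 groups gave 15 (Dex 24 h), 1 (TNF 2 h), 5 (TNF 24 h) and 0 (TNF 6 d), then 1, 12 and 0 for Dex against TNF at 2 h, 24 h and 6 d, 11 for Dex 6 d against 24 h and 0 for TNF 6 d against 24 h. Outside the paired comparisons the lowest correlation of same-numbered arrays was -0.259 to 0.0555, and 2 to 4 of 6 arrays correlated best with their own number. Array weights, whose fit stopped before it converged, gave 3, 19 and 20 for Dex at 2 h, 24 h and 6 d, 7, 13 and 13 for TNF, 4 and 19 for Dex against TNF at 2 h and 24 h, and 14 for each agent between 24 h and 6 d.

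Leaving out 1 array at a time gave 0 to 0 (Dex 2 h), 3 to 10 (Dex 24 h), 9 to 14 (Dex 6 d), 0 to 1 (TNF 2 h), 2 to 4 (TNF 24 h) and 3 to 7 (TNF 6 d) against control. Dex against TNF gave 0 to 1 at 2 h, 5 to 11 at 24 h and 10 to 15 at 6 d, Dex 6 d against 24 h 2 to 8 and TNF 6 d against 24 h 2 to 7. Of the changes followed, 2 that were not called changed sign. The log2 fold change of Col18a1, Dex_6D vs TNF_6D (-0.19 with all arrays), ranged from -0.57 without TNF 6 d replicate 2 to 0.049 without replicate 1. The log2 fold change of Col1a2, TNF_6D vs CTL (0.11 with all arrays), ranged from -0.030 without TNF 6 d replicate 3 to 0.30 without replicate 2. The cause of these shifts was not tested.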
